A study of Mus musculus with 6 samples.

Results

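Sox2, its overlapping noncoding gene Sox2ot and 7 other genes of the SOX family (Sox21, Sox9, Sox4, Sox13, Sox18, Sox17 and Sox7) were followed in mouse pylorus after deletion of Sox2. These 9 genes were taken by symbol from a table of 39179 genes, and none of the 9 symbols is repeated in it. RNA of the pylorus, the end of the stomach next to the duodenum, was sequenced in 3 Sox2 KO and 3 Sox2 WT libraries. Sox2 KO mice carried CreER, a tamoxifen-activated recombinase, at Rosa26 together with Sox2 fl/fl. Sox2 WT mice carried Sox2 fl/fl with Rosa26 WT, although their genotype label reads wild type. All mice were of C57BL/6 x 129 mixed strain, received tamoxifen at 8 weeks of age and were collected 2 weeks later. The muscle layer was taken off, and RNA came from epithelium together with mesenchyme. No library with CreER and without floxed Sox2 was analysed here, so effects of CreER and of the deletion cannot be told apart. The labels do not say that each library is 1 animal, and every p-value here measures the spread between libraries, which in Sox2 WT holds a difference of sex.

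SOX proteins are transcription factors that share the HMG box, a domain that binds and bends DNA in the minor groove, and they are sorted into groups A to H by sequence. SOX2, of group B1, keeps embryonic stem cells and neural progenitors undifferentiated, patterns the foregut and marks progenitor cells of the adult stomach. Factors of 1 group often act in the same cells and can stand in for each other. For this reason the question after loss of SOX2 is whether another SOX gene is higher. Sox2ot is a long noncoding gene on the same strand as Sox2, and Sox2 lies inside its body.

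Reads recovered from the values summed to between 22015344 and 32581740 per library. Pyloric genes were abundant in every library, among them the gastrin gene Gast, at 2766 RPKM or more. Genes of acid-secreting parietal cells, typical of the neighbouring corpus, varied widely: Atp4a was at 522, 526 and 256 RPKM in Sox2 KO and at 307, 961 and 135 RPKM in Sox2 WT. Sex differed along with genotype: Xist, the RNA that coats the inactive X chromosome, did not exceed 0.0103 RPKM in any Sox2 KO library, while the Sox2 WT libraries held 0.0124, 36.3 and 33.3 RPKM. In bulk tissue, fewer cells of a type and less RNA per cell cannot be told apart.

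The start of Sox2 (ENSMUSG00000074637) is shown because it lies inside the body of Sox2ot, the gene whose level stood opposite to that of Sox2. GENCODE M21 places Sox2 at chr3:34650405-34652461 on the plus strand of GRCm38, as 1 exon, and Sox2ot on the same strand at chr3:34104270-34682619. None of the Sox2ot exons in that annotation overlaps the Sox2 gene. The deposited Sox2ot identifier, ENSMUSG00000090828, is not an identifier of that release, where the symbol belongs to ENSMUSG00000105265, so the exons behind the deposited Sox2ot values may differ. The RefSeq promoter window of Sox2 on GRCm38.p6, chr3:34649745-34650044, runs on the plus strand from 250 bases before the RefSeq start, which is upstream of the GENCODE start, to 50 bases after it. Capitals mark ACAAAG, a SOX-type motif, and ATGCAAA, an octamer-type motif bound by POU factors.
Sox2 promoter: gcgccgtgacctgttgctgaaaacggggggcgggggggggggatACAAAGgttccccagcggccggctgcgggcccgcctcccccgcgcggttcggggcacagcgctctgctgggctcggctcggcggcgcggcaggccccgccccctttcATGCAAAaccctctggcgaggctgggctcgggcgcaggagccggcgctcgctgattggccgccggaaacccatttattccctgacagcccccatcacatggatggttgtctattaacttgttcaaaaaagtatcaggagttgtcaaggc
Searched on both strands, ACAAAG is found in 18.7% of 32851 promoters of the same length, ACAATG in 12.6% and ATGCAAA in 4.6%. In the Sox2 window ACAAAG begins at position -206 and ATGCAAA at position -99 from the start, both on the plus strand, and ACAATG is not in these letters. Promoter entries of Sox21, Sox4 and Sox13 hold none of the 3 motifs. A match describes the sequence and no binding was measured.

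Sox2 fell in Sox2 KO pylorus to a small residual level. In replicates 1, 2 and 3 its level was 0.342, 0.210 and 0.420 RPKM in Sox2 KO, against 11.1, 9.03 and 10.9 RPKM in Sox2 WT. RPKM counts the reads of a gene relative to its length and to the size of the library. The highest Sox2 KO library was far below the lowest Sox2 WT library. The values rest on 25, 15 and 35 reads in Sox2 KO and on 657, 622 and 683 reads in Sox2 WT. The mean was 0.324 ± 0.106 RPKM in Sox2 KO and 10.3 ± 1.13 RPKM in Sox2 WT (SD, n = 3 each), so that 3.13% of the Sox2 WT level was left. Its log2 fold change on the log2(RPKM + 0.5) scale was -3.72 (95% interval -4.06 to -3.38, limma adjusted p = 2.9e-04). On recovered reads, without that pseudocount, limma's voom gave -5.00 with an adjusted p of 0.00104. Permuting the 6 libraries exactly (two-sided) gave p = 0.1, the smallest that 3 against 3 allows.

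Each Sox2 KO library kept some Sox2 reads, at least 15. As a share of the Sox2 WT mean, the level was 3.31% in replicate 1 (exact Poisson 95% interval of its reads 2.14 to 4.88%). It was 2.03% in replicate 2 (1.14 to 3.35%) and 4.06% in replicate 3 (2.83 to 5.65%). The 3 intervals overlap. These intervals cover counting error only, and 1 read was worth between 0.0120 and 0.0140 RPKM. Cells other than glandular epithelium that express Sox2 were looked at by their markers. Of 9 genes of the squamous forestomach, which is one of them, the basal cell genes Krt5 and Krt14 were at most 0.0674 RPKM in any library and Sprr3 was at 0 in all 6. The summed level of that list was 1.25 to 2.55 RPKM in Sox2 KO and 1.00 to 2.30 RPKM in Sox2 WT. Most of it was the keratin gene Krt13, the 1 member above the filter, at 0.982, 1.29 and 2.03 RPKM in Sox2 KO and at 1.67, 0.551 and 1.84 RPKM in Sox2 WT. Enteric glia are another. Their regulator Sox10 was at 0.335, 0.203 and 0.163 RPKM in Sox2 KO, against 0.275, 0.421 and 0.0579 RPKM in Sox2 WT, and the groups overlapped. The summed level of 10 enteric neuron and glia markers, most of it Erbb3, was 34.4 to 64.3 RPKM in Sox2 KO and 37.4 to 52.2 RPKM in Sox2 WT, with none at 0. The share of residual Sox2 RNA that came from either cell type was not tested.

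**Figure D1:**
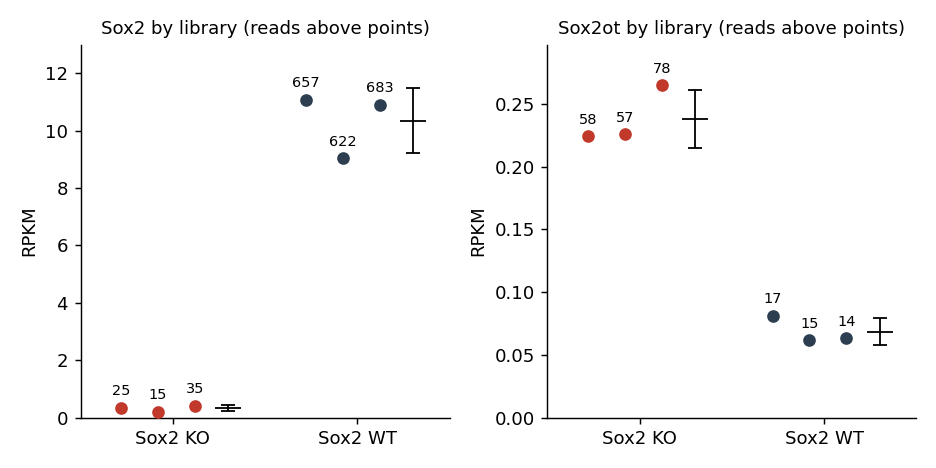
Sox2 (left) and Sox2ot (right) in RPKM for each library, Sox2 KO left of Sox2 WT; the number above a point is its recovered reads, and the bar beside each group is the mean with its SD (n = 3). Sox2 KO libraries lie at or below 0.420 RPKM for Sox2 and at or above 0.224 RPKM for Sox2ot, with no overlap between the groups in either gene.

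Sox2ot stood in the opposite order to Sox2, at a much lower level. It was at 0.224, 0.226 and 0.265 RPKM in Sox2 KO, from 58, 57 and 78 reads. In Sox2 WT it was at 0.0810, 0.0616 and 0.0632 RPKM, from 17, 15 and 14 reads. Every Sox2 KO library was above every Sox2 WT library, and so were their counting intervals, with a lowest lower bound of 0.170 RPKM in Sox2 KO and a highest upper bound of 0.130 RPKM in Sox2 WT. The mean was 0.238 ± 0.0230 RPKM in Sox2 KO and 0.0686 ± 0.0108 RPKM in Sox2 WT (SD, n = 3 each), a ratio of 3.47.

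Sox2ot did not pass the test across all genes. Its mean of 0.153 RPKM is under the filter of 0.5 RPKM, so it was tested among all 23494 genes with a value above 0. There limma called 0.0128% of genes, and the log2 fold change of Sox2ot was 0.38 (95% interval 0.25 to 0.50, limma unadjusted p = 2.92e-04, adjusted p = 0.344). The pseudocount of 0.5, larger than any Sox2ot value, holds that fold change down. On recovered reads the log2 fold change was 1.78, with a voom adjusted p of 0.138. The exact two-sided permutation test gave p = 0.1, again the smallest possible. Groups did not overlap, with Sox2 KO higher, in 3.89% of those 23494 genes. A stricter rule, chosen after the values were seen, asked for no overlap and a mean at least 3 times higher in Sox2 KO among genes with at least 100 reads; it took in Sox2ot and 0.189% of 14829 genes. Against Sox2 WT replicate 1, the Sox2 WT library without Xist, Sox2ot was still higher in each Sox2 KO library, and its log2 fold change was 0.34 (limma adjusted p = 0.36).

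The balance of the 2 overlapping genes differed between the groups. Sox2ot per length was 65.6%, 107% and 63.0% of Sox2 in Sox2 KO, against 0.731%, 0.682% and 0.579% in Sox2 WT. Sox2 contributed more to that difference than Sox2ot, with a mean at 3.13% of Sox2 WT against a ratio of 3.47 for Sox2ot. Other genes within 1 Mb of Sox2 were examined for the same order of groups. Of 14 whose identifier matched GENCODE M21, Sox2 included, 8 were at 0 in every library and 5 had a mean of at least 0.1 RPKM. Apart from Sox2, these were Fxr1, an RNA-binding protein gene 580 kb away (log2 fold change -0.12, limma adjusted p = 0.9995), the mitochondrial co-chaperone gene Dnajc19 (-0.04), Ttc14 (-0.01) and the pseudogene Gm9791 (0.22). The values of each of these 4 overlapped between the groups. Fxr1, for example, was at 14.2, 16.3 and 14.3 RPKM in Sox2 KO and at 16.0, 18.3 and 14.5 RPKM in Sox2 WT.

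None of the 7 other SOX members changed past the threshold. Of the 8 members in the fit, Sox2 alone passed, against 0.0285% of all 14045 genes tested. Of the other 7, limma and voom each called 0, and 0 had a limma unadjusted p under 0.05, against 3.15% of all genes tested. Groups were apart in 0 of the 7, against 7.08% of all genes tested. Their log2 fold changes ran from -0.38 for Sox21 to 0.15 for Sox17, with a median of -0.01, beside 0.02 over all genes.

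**Figure D2:**
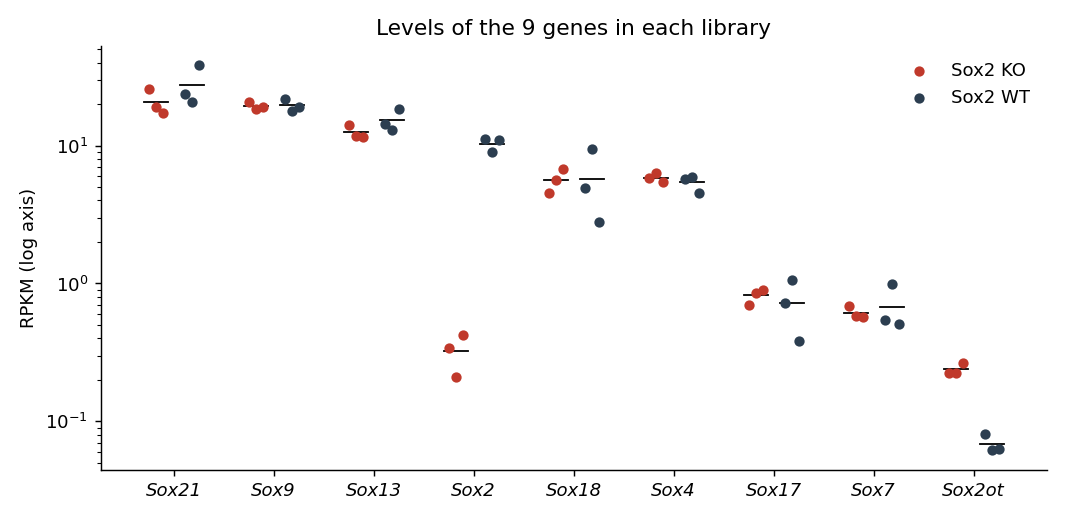
Level of each of the 9 genes in RPKM on a log axis, ordered by the Sox2 WT mean, with Sox2 KO points left of Sox2 WT points and a bar at each mean (n = 3). Sox2 and Sox2ot are the genes whose groups are apart; the values of the other 7 overlap between the groups.

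Sox21 (chr14:118233232-118237030, minus strand), the group B2 factor that in neural cells opposes the activators of group B1, had the highest mean RPKM of the SOX genes in both groups, in ranges that overlapped those of Sox9. It was at 25.7, 19.1 and 17.3 RPKM in Sox2 KO and at 23.8, 20.7 and 38.3 RPKM in Sox2 WT. Sox2 WT replicate 3 stood above the other 5 libraries. The log2 fold change was -0.38 (95% interval -0.96 to 0.20, limma adjusted p = 0.9995), and -0.12 without Sox2 WT replicate 3. The length that the Sox21 values imply is 6890 bases, longer than the 3799 bases of the gene in GENCODE M21, so its rank per length depends on the annotation used. The other genes of group B1 were at or next to 0: Sox3 was at 0 in every library, and Sox1 had 1 read in all.

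Sox9 (chr11:112782224-112787760, plus strand), a group E factor of progenitor cells in gut glands and of cartilage, had the log2 fold change with the narrowest interval of the 7. It was at 20.6, 18.4 and 19.1 RPKM in Sox2 KO and at 21.9, 17.9 and 18.9 RPKM in Sox2 WT. The 2 groups covered nearly the same range. Its log2 fold change was -0.01, with a 95% interval of -0.28 to 0.25, which corresponds to 0.826-fold to 1.19-fold.

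Sox13 (chr1:133382303-133424377, minus strand), a group D factor without a transactivation domain, was at 14.1, 11.8 and 11.5 RPKM in Sox2 KO. It was at 14.4, 12.9 and 18.4 RPKM in Sox2 WT, where replicate 3 was again the highest. Its log2 fold change was -0.27 (95% interval -0.63 to 0.09) and -0.13 without that library. Sox4 (chr13:28948919-28953713, minus strand), a group C factor of progenitor cells, was at 5.79, 6.29 and 5.48 RPKM in Sox2 KO and at 5.74, 5.97 and 4.50 RPKM in Sox2 WT. The groups overlapped, and the log2 fold change was 0.11 (95% interval -0.20 to 0.42).

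Sox18, Sox17 and Sox7 form group F, whose members act together in the endothelium of blood and lymph vessels. In GENCODE M21 they lie at chr2:181669836-181671640 (minus strand), chr1:4490931-4497354 (minus strand) and chr14:63943673-63950732 (plus strand). Sox18 was at 4.56, 5.61 and 6.80 RPKM in Sox2 KO, against 4.89, 9.46 and 2.81 RPKM in Sox2 WT. Sox17 was at 0.703, 0.855 and 0.898 RPKM in Sox2 KO, against 0.727, 1.05 and 0.382 RPKM in Sox2 WT. Sox7 was at 0.682, 0.585 and 0.573 RPKM in Sox2 KO, against 0.540, 0.985 and 0.511 RPKM in Sox2 WT. For all 3 genes Sox2 WT replicate 2 was the highest library and Sox2 WT replicate 3 the lowest, so that the Sox2 KO values lay inside the range of the Sox2 WT values. The log2 fold changes were 0.12 for Sox18 (95% interval -0.75 to 0.98), 0.15 for Sox17 (-0.37 to 0.66) and -0.06 for Sox7 (-0.49 to 0.37). Leaving out 1 library turned each of these directions.

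Group F shared its extreme libraries with the summed markers of 2 cell types. The summed level of 10 endothelial markers was 55.1, 53.9 and 50.6 RPKM in Sox2 KO and 53.0, 60.9 and 40.6 RPKM in Sox2 WT. Its highest and lowest libraries were the same as those of Sox18, over a narrower range. The single markers differed. Pecam1, Kdr, Tek, Tie1 and Emcn were highest in Sox2 WT replicate 2, but Cdh5 and Eng in Sox2 WT replicate 1. Flt1 was highest in Sox2 KO replicate 1, and Egfl7 and Esam in Sox2 KO replicate 3. The summed level of 3 parietal cell markers was 1819, 2003 and 1083 RPKM in Sox2 KO and 1039, 3473 and 580 RPKM in Sox2 WT, again with both extremes in Sox2 WT replicates 2 and 3. Lymphatic markers summed to 8.33 to 9.80 RPKM in Sox2 KO and to 8.34 to 10.4 RPKM in Sox2 WT. None of the 10 endothelial, 4 lymphatic or 3 parietal markers tested passed in limma or voom or had an unadjusted p under 0.05, beside 0.0285% and 3.15% of all genes tested in limma. The smooth muscle markers, 6 of 6 tested and 0 called or under 0.05, summed to 416 to 674 RPKM in Sox2 KO and to 446 to 707 RPKM in Sox2 WT. The part of these cell types in the group F values was not tested.

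**Figure D3:**
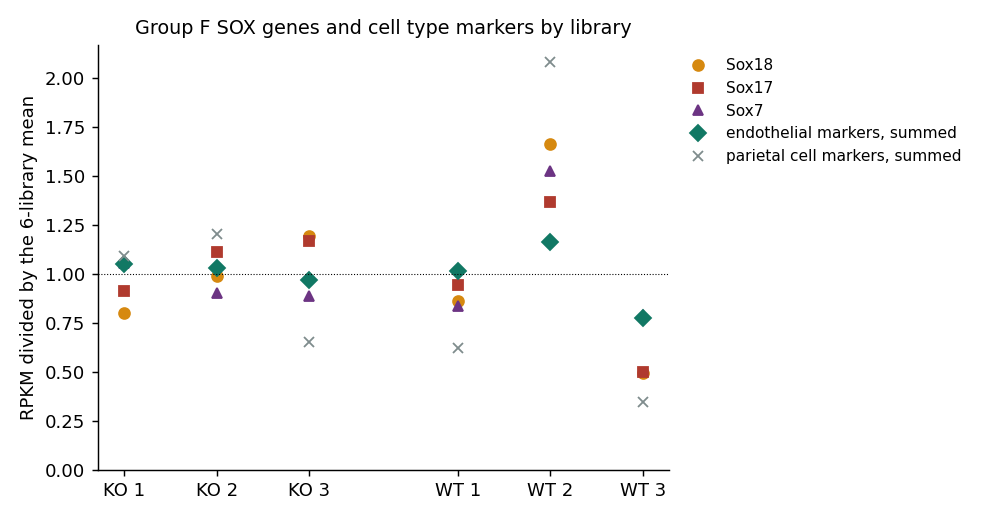
Sox18, Sox17, Sox7 and the summed RPKM of endothelial and parietal cell markers in each library, divided by their own 6-library mean (dotted line at 1), with Sox2 KO left of Sox2 WT. Sox18 is at 1.66 in Sox2 WT replicate 2 and 0.494 in Sox2 WT replicate 3, and Sox2 KO libraries lie between them.

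The intervals give, gene by gene and without adjustment for sex, the range of differences in bulk RNA of the other SOX genes. They do not bound a rise within the cells that lost Sox2. On the log2(RPKM + 0.5) scale, the upper ends for the 7 members ran from 1.06-fold for Sox13 to 1.98-fold for Sox18. Sox9 could be up to 1.19-fold and Sox21 up to 1.15-fold higher within its interval. Sox21 and Sox13 were highest in Sox2 WT replicate 3, a library with Xist. Sox2 WT replicate 2, also with Xist, held their lowest Sox2 WT values, 20.7 and 12.9 RPKM. Without Sox2 WT replicate 3 their log2 fold changes were -0.12 and -0.13, against -0.38 and -0.27 with every library. With sex as a covariate they were -0.22 and -0.21. A p that misses the threshold does not show equal levels, and for Sox18 the interval includes nearly a doubling.

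**Figure D4:**
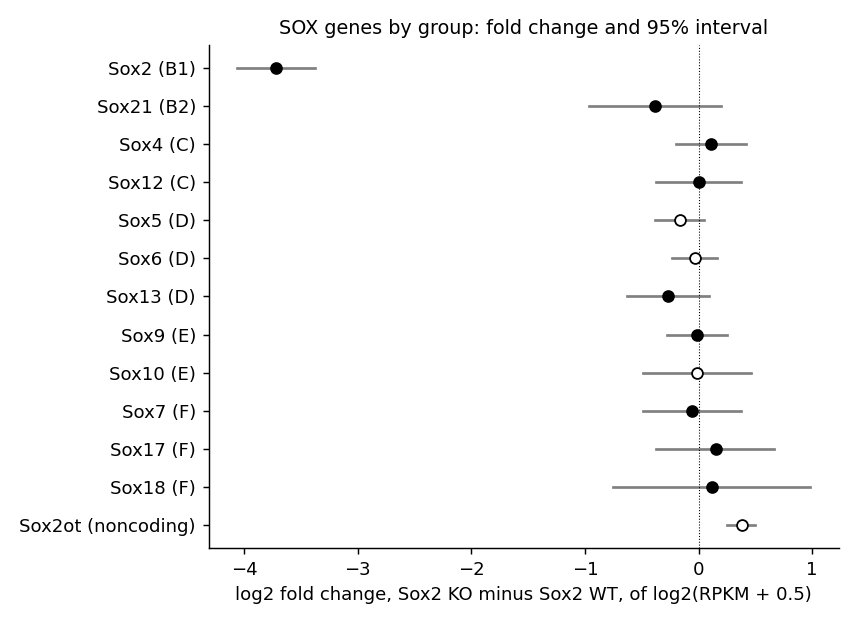
Log2 fold change (Sox2 KO minus Sox2 WT, of log2(RPKM + 0.5)) with its 95% interval for SOX genes by group and for Sox2ot; filled points come from the fit of genes with a mean of at least 0.5 RPKM, open points from the fit of all genes above 0. Sox2 lies at -3.72, and the intervals of the other SOX genes include 0; that of Sox2ot, 0.25 to 0.50, does not, without passing after adjustment.

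The summed RPKM of the SOX family was lower in Sox2 KO. All 20 SOX genes, Sox2 included, summed to 74.2, 64.5 and 63.7 RPKM in Sox2 KO and to 85.0, 80.1 and 96.1 RPKM in Sox2 WT. The groups were apart on this sum, with means of 67.5 ± 5.82 RPKM in Sox2 KO and 87.1 ± 8.19 RPKM in Sox2 WT (SD, n = 3 each). Sox2 made up 0.482% ± 0.168 of it in Sox2 KO and 11.9% ± 1.00 in Sox2 WT (SD, n = 3 each). Without Sox2 the sums were 73.8, 64.3 and 63.3 RPKM in Sox2 KO and 73.9, 71.1 and 85.2 RPKM in Sox2 WT, and the groups overlapped. No library of Sox2 KO exceeded the highest Sox2 WT library in the sum without Sox2.

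**Figure D5:**
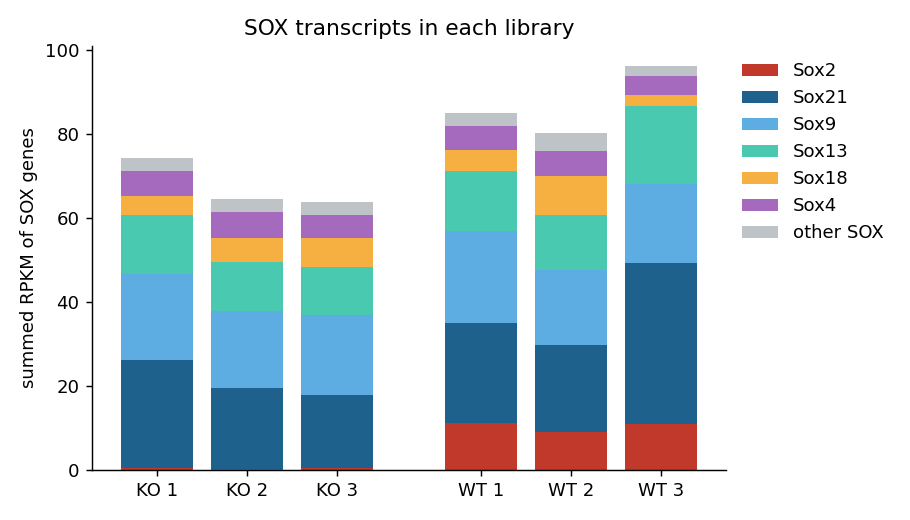
Summed RPKM of all SOX genes in each library, stacked by gene, with Sox2 KO left of Sox2 WT. Sox2 is 9.03 to 11.1 RPKM of each Sox2 WT bar and at most 0.420 RPKM of each Sox2 KO bar.

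The order of the 9 genes differed between the groups mainly in the place of Sox2. In Sox2 KO the order by mean RPKM was Sox21, Sox9, Sox13, Sox4, Sox18, Sox17, Sox7, Sox2 and Sox2ot. Neighbours whose libraries overlapped in Sox2 KO were Sox21 with Sox9, Sox4 with Sox18, and Sox2 with Sox2ot. In Sox2 WT the order was Sox21, Sox9, Sox13, Sox2, Sox18, Sox4, Sox17, Sox7 and Sox2ot. There the libraries of Sox13 and Sox2, of Sox4 and Sox17, and of Sox7 and Sox2ot were apart, and all other neighbours overlapped. Sox2 was thus at place 8 of the 9 genes in Sox2 KO, against place 4 in Sox2 WT.

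The rest of the family was sparse. Sox12, of group C, was the 1 further gene above the filter, with a log2 fold change of 0.00 (95% interval -0.37 to 0.37) and 0.835 RPKM or less on average in either group. Of the others, 8 were above 0 and under the filter, and Sry, Sox3 and Sox14 were at 0 in every library. Sox5, a group D partner of Sox6 in cartilage, was at 0.327, 0.325 and 0.238 RPKM in Sox2 KO and at 0.444, 0.362 and 0.364 RPKM in Sox2 WT. Its groups did not overlap, with Sox2 KO lower, as in 3.61% of all genes above 0, and its log2 fold change was -0.16 (95% interval -0.38 to 0.05, limma adjusted p = 0.9998). Sox6 had a log2 fold change of -0.03 and Sox10 of -0.01, and the groups overlapped in both.

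Genes known to work with SOX2 or downstream of SOX factors were counted from lists chosen for this tissue; the median log2 fold change of the tested genes was -0.14 for partners, -0.10 for SOX2 targets, -0.10 for foregut factors and 0.04 for targets of other groups, beside 0.02 over all genes. The counts of these lists stand beside 0.0285% of all genes called by limma, 3.15% with an unadjusted p under 0.05 and 7.08% with groups apart, shares at which lists of this size hold few such genes or none. Of 11 partner factors, 5 were tested, and limma and voom called 0 of them; 0 had an unadjusted p under 0.05. Pou5f1 and Nanog, the partners of SOX2 in embryonic stem cells, were at 0 in every library. Klf4, a factor of differentiated gastric epithelium, was at 265, 245 and 238 RPKM in Sox2 KO and at 255, 222 and 379 RPKM in Sox2 WT. Pax6, a factor of endocrine cells and eye development, was apart at 0.763, 0.609 and 0.894 RPKM in Sox2 KO and 1.09, 0.917 and 0.951 RPKM in Sox2 WT, with a log2 fold change of -0.25 (limma adjusted p = 0.9995), and was named after its values were seen. The chromatin remodeller gene Chd7 (log2 fold change -0.09) and the octamer-binding factor gene Pou2f1 (-0.14) overlapped between the groups. Of 11 SOX2 target genes described in embryonic stem and neural cells, 4 were tested and 0 were called by either tool, with 0 at an unadjusted p under 0.05. The cyclin gene Ccnd1 was at 24.1, 23.4 and 31.0 RPKM in Sox2 KO and at 35.8, 29.1 and 32.7 RPKM in Sox2 WT (log2 fold change -0.31, limma unadjusted p = 0.0617). Lefty1 (-0.05) and Notch1 (0.02) lay near 0.

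Foregut patterning factors that act with or against SOX2 were counted in the same way. Of 11, 7 were tested, limma and voom called 0, and 1 had a p under 0.05 before adjustment. It was the endoderm factor gene Foxa2, named after its value was seen, with a log2 fold change of -0.29 and a limma adjusted p of 0.9995. Gata4, a stomach and intestine factor, was at 55.0, 54.8 and 56.0 RPKM in Sox2 KO and at 63.3, 59.7 and 61.5 RPKM in Sox2 WT, with no overlap and a log2 fold change of -0.15 (limma adjusted p = 0.9995). Gata6 (-0.10) and Klf5 (-0.28) overlapped between the groups. Cdx2, which specifies intestine and is antagonistic to SOX2 in the embryonic gut, was under the filter. It was at 0.134, 0.792 and 0.653 RPKM in Sox2 KO and at 0.239, 0.0158 and 0.278 RPKM in Sox2 WT, and the groups overlapped. Duodenal epithelium, which adjoins the pylorus and expresses Cdx2, was followed by 6 markers, of which 4 were tested, 0 were called by limma or voom and 2 had an unadjusted p under 0.05. These 2, named after their values were seen, lay in opposite directions. The fatty acid-binding protein gene Fabp1 was at 5.75, 8.96 and 4.40 RPKM in Sox2 KO and at 1.36, 5.78 and 1.64 RPKM in Sox2 WT (log2 fold change 1.18). The alkaline phosphatase gene Alpi was at 2.25, 6.76 and 5.30 RPKM in Sox2 KO and at 8.73, 6.27 and 17.6 RPKM in Sox2 WT (log2 fold change -1.10). Both overlapped between the groups, and the 6 markers summed to 107 to 113 RPKM in Sox2 KO and to 82.8 to 140.3 RPKM in Sox2 WT. Most of that sum was the villin gene Vil1. It was at 82.9, 78.0 and 78.6 RPKM in Sox2 KO and at 82.2, 52.9 and 92.2 RPKM in Sox2 WT. Cdx2 is itself among the 6 markers, so their sum is not independent of it. The part of duodenal tissue in the Cdx2 values was not tested. Of 13 targets of groups F, E and C, 10 were tested, with 0 called by limma or voom and 0 at an unadjusted p under 0.05. Their most abundant members were Erbb3 (0.05), Cdh5 (0.04) and Vcam1 (0.04).

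The genes whose profile over the 6 libraries was nearest that of Sox2 were ranked by the root-mean-square difference of log2(RPKM + 0.5), each gene centred on its mean, among 14044 genes. Nearest was Gsdmc2, a gasdermin gene with close paralogs (difference 0.713), then Tph1, which starts serotonin synthesis (0.789), and the cytochrome P450 gene Cyp2d26 (1.16). Tph1 was at 2.22, 1.39 and 1.56 RPKM in Sox2 KO and at 11.0, 6.88 and 11.4 RPKM in Sox2 WT. Of the 3, Gsdmc2 passed (log2 fold change -2.31, limma adjusted p = 0.0123); Tph1 (adjusted p = 0.0501) and Cyp2d26 (adjusted p = 0.165) did not. Gsdmc2 no longer passed without Sox2 KO replicate 2 (limma adjusted p = 0.0729), Sox2 KO replicate 3 (0.0752), Sox2 WT replicate 1 (0.0612) or Sox2 WT replicate 3 (0.0504), and with sex as a covariate its log2 fold change was again -2.31, with an adjusted p of 0.389. Tph1, near the threshold, passed without Sox2 KO replicate 1 (limma adjusted p = 0.0448) or Sox2 WT replicate 2 (0.0292) and with voom (0.0245). For Sox2ot, whose span on this scale is narrow, the nearest were the apoptosis gene Bbc3 (0.0557), Asprv1 (0.0590) and Osgin1 (0.0594). In RPKM they were less alike, with Sox2 KO to Sox2 WT ratios of 1.34, 1.64 and 1.31, against 3.47 for Sox2ot. Osgin1 was at 12.9, 12.3 and 11.8 RPKM in Sox2 KO and at 9.50, 9.27 and 9.46 RPKM in Sox2 WT, and none of these 3 passed (limma adjusted p = 0.756 for Osgin1).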

How the data were processed

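The deposited values are RPKM, computed by the authors for 39179 genes with Ensembl identifiers. The tools named in the submitters' processing notes are CASAVA 1.7 and STAR, and the build is mm10. Which counter, annotation and strand setting served is not given in the sources used. The 6 single-library tables equal the columns of the series table. The RPKM values were converted to whole reads by searching for 1 length per gene and 1 denominator per library. Reads were whole within 1e-05 for 100% of the 23538 genes with a value; this is a weak check for genes seen in few libraries. The smallest fitting length was taken. Read sums were 91.2% to 109% of the denominators, so these hold a further factor per library.

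limma 3.58.1 in R 4.3.3, with a variance trend, was fitted to log2(RPKM + 0.5) of 14045 genes with a mean of at least 0.5 RPKM, Sox2 KO minus Sox2 WT, with Benjamini-Hochberg adjustment and a threshold of 0.05. Of rows sharing a symbol, the one with the highest mean was kept. Genes under the filter were read from the same fit to all 23494 genes above 0. This scale understates changes of low genes. The fit was also run on simulated data, with large changes in genes above the filter. That run does not cover small differences or genes under the filter, such as Sox2ot. Reads shared by overlapping genes cannot be assigned from these tables.

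Named were the 9 members, the other SOX genes above 0.1 RPKM, genes within 1 Mb of Sox2 above 0.1 RPKM, the 3 nearest profiles, and up to 3 abundant genes of each list. Members and lists were chosen with earlier results of these data known. Foxa2, Cdx2, Pax6, Pou5f1, Nanog and the marker genes were named outside this rule. Alternatives were pseudocounts of 0.1 and 1, other filters, median-of-ratios and quantile scaling, a replicate block, each library left out, sex read from Xist, all rows, voom, and no trend.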

Additional observations from a re-analysis of the deposited data

How the results depend on the processing

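Sox2 kept its direction under all 19 alternatives and its call under 18. In libraries without Xist, with 1 Sox2 WT library, its log2 fold change was -3.82 and the call was lost. That lone library is assumed to vary like the Sox2 KO libraries. With sex as a covariate the log2 fold change was also -3.82, since that estimate rests on the same Sox2 WT library. Without any 1 library it was -3.81 to -3.62. Sox2ot had a positive log2 fold change and did not pass under any of 17 alternatives. Its log2 fold change was 0.35 to 0.39 without any 1 library, and its adjusted p was lowest, 0.121, with voom on genes with at least 10 reads in 3 libraries, an alternative chosen after seeing the data. The filters on mean RPKM do not apply to it.

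Of the 7 other SOX members, 0 passed under any of the alternatives. The direction changed as follows, with no call at any setting. Without Sox2 WT replicate 3 the log2 fold change was -0.27 for Sox18, -0.07 for Sox17 and -0.0014 for Sox4. It was -0.01 for Sox18 without Sox2 KO replicate 3. Sox9 was at 0.03 without Sox2 KO replicate 2 and 0.07 without Sox2 WT replicate 1. Sox7 was at 0.12 without Sox2 WT replicate 2 and at 0.10 both with sex as a covariate and in libraries without Xist. Without any 1 library the ranges were -0.07 to 0.07 for Sox9, -0.0014 to 0.18 for Sox4, -0.27 to 0.53 for Sox18, -0.07 to 0.34 for Sox17 and -0.16 to 0.12 for Sox7. Sox7 and Sox17 fall under a filter of 1 RPKM.

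The count over all genes, 4, was 1 with sex as a covariate, 8 with voom and 9 with voom on the genes chosen by reads. It was 1 to 8 without any 1 library. With the replicate block it was 1, and Gsdmc2 had a limma adjusted p of 0.0617. The sex covariate acted the other way in the fit to all 23494 genes above 0. There 3 genes passed without it and 71 with it, all of these 71 lower in Sox2 KO. Same-numbered libraries correlated at 0.009, 0.097 and -0.074 in their deviations, and differently numbered ones at -0.158 to 0.165. With 3 libraries per group, these values cannot decide whether the numbers pair the libraries. The cause of the differences between settings was not tested. Sox2ot rests on 14 to 78 reads per library.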
